A study of Mus musculus with 4 samples.

Results

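The genes described here are 10 transcripts associated with regulatory T (Treg) cells, other than *Foxp3*, that encode surface proteins, secreted products and cytoskeletal proteins. The members were taken as a fixed list of gene symbols, namely *Nrp1*, *Gpr83*, *Izumo1r*, *Lrrc32*, *Cd83*, *Ebi3*, *Fgl2*, *Capg*, *Swap70* and *Dst*, and all 10 were found among the 55367 genes counted. Bulk RNA-seq was done on CD4+ T cells from the spleens of C57BL/6 mice, in 4 libraries, of which 2 carry the genotype label WT (WT 1 and WT 2) and 2 the label *Satb1* conditional knockout (cKO 1 and cKO 2). In the study the knockout mice carry floxed *Satb1* alleles (*Satb1* F/F) and *Thpok-cre*, which acts from CD4 lineage commitment onwards and therefore in conventional CD4+ T cells and Treg cells alike. No treatment was given. The labels give neither age nor sex of these mice, the methods describe young adult animals of mixed sexes for the study in general, and the labels do not say whether the WT mice carried floxed alleles or Cre. The labels name no sort by FoxP3 or CD25, so conventional and Treg cells are taken to be mixed in each library. The comparison asks whether genes of the Treg surface and effector program differ between the genotype labels in this unseparated population.

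Treg cells restrain other lymphocytes and are defined by the transcription factor FoxP3. They carry surface proteins that present or activate inhibitory cytokines, release soluble inhibitors, and depend on the actin cytoskeleton for migration and for contact with the cells that they suppress. None of the 10 genes is exclusive to Treg cells, since B cells, myeloid cells or activated conventional T cells can also express several of them. SATB1, the product of the targeted gene, binds AT-rich DNA and helps to fold the genome of T cells.

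The DNA before the start sites of *Nrp1* and *Dst*, which rose, is shown first, because these members differed in expression and RefSeq lists a pair of start sites for *Dst*. Each sequence is the 250 bases before a RefSeq start site on the plus strand of GRCm38.p6, and capitals mark CpG dinucleotides, the usual sites of DNA methylation. The windows are chr8:128358823-128359072 for *Nrp1*, chr1:34011345-34011594 for the first *Dst* start and chr1:34160010-34160259 for the second, and none of them touches an annotated exon.
Nrp1: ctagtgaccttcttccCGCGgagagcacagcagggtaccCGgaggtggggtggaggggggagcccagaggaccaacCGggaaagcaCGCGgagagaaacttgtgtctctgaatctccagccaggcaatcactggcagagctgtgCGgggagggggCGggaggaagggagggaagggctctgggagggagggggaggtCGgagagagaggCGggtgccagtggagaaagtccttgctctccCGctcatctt
Dst first start: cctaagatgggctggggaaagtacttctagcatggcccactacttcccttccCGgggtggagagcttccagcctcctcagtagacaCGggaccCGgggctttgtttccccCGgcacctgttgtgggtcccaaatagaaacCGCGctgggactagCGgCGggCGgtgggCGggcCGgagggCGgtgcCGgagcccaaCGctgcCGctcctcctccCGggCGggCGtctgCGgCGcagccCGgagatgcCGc
Dst second start: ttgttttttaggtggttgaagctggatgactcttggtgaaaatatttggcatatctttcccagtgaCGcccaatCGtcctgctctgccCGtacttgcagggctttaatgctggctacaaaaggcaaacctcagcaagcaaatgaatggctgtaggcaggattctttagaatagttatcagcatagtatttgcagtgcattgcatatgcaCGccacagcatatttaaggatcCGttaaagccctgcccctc

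The window before the first *Dst* start held 22 CpG and 68.8% G and C, whereas the window before the second held 5 CpG and 45.2%. The *Nrp1* window held 11 CpG and 64.4%. Across the 32851 windows of the same length in the table, the median was 6 CpG and 52.4%. The *Dst* starts lie 148.665 kb apart within the gene, which in GENCODE begins at 33908225, before both windows. It has 20 annotated transcripts, so this pair need not be its only starts, and the gene counts cannot tell which start was used. The annotated *Nrp1* gene likewise begins at 128358604, before its window. RefSeq windows were found for 8 of the 10 members, with 9 windows in all, and not for *Cd83* and *Lrrc32*.

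The windows of the 8 members were searched on both strands for the core forkhead word TGTTTAC, the kind of sequence that FoxP3 and related factors bind. It occurred in 1 of the 9, that of *Swap70* (plus strand, chr7:110221453-110221702), and in 3.17% of all windows. The match begins 107 bases before the start and is shown in capitals, as a description of the sequence and not as a bound site.
Swap70: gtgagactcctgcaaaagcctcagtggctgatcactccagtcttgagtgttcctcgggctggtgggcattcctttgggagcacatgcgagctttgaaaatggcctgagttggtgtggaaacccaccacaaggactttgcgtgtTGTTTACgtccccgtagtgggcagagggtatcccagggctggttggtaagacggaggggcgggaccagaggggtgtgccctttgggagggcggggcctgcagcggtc

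The Runx word TGTGGT occurred in the windows of *Swap70* and *Izumo1r* (14.05% of all windows), the AP-1 word TGANTCA and the STAT word TTCNNNGAA in that of *Fgl2* (6.75% and 7.02%), and the NFAT word GGAAAA in none of the 9 (20.4%). *Nrp1* and *Dst*, the rising members with a window, held none of these words within it.

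The libraries held between 4495902 and 6555699 gene counts, so that 1 count corresponds to between 0.152 and 0.223 CPM, the gene counts per 1000000 scaled library counts, which is the unit of level used throughout. *Satb1* itself was not lower in the libraries labelled cKO, with a log2 fold change of -0.05 and an edgeR adjusted p = 0.877, so every direction below follows the labels. *Xist*, which female cells express, had 5447 and 4235 counts in WT but 9 and 6 in cKO, so sex and genotype cannot be told apart in any value below. Of the CD4+ T cell markers 6 of 6 were detected in every library, at a summed 3828 to 4321 CPM, and 1 of them rose, *Zbtb7b*, which encodes ThPOK (log2 fold change 0.66, edgeR adjusted p = 0.0117). The 10 B cell markers summed to 15.2 and 17.6 CPM in the WT libraries, 64.5 in cKO 1 and 26.9 in cKO 2, and the 10 myeloid markers to 35.0, 42.6, 104 and 60.1 CPM in the same order. Among the B cell markers 1 was at 0 in cKO 2, and among the myeloid markers 3 were at 0 in WT 1 and 1 in WT 2. The 7 dendritic cell markers summed to at most 6.69 CPM in any library.

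Of the 10 members, 3 rose in the libraries labelled cKO, none fell, and 7 did not pass the threshold. *Dst* rose 3.31-fold, *Cd83* 1.96-fold and *Nrp1* 1.68-fold. A gene was called at a Benjamini-Hochberg adjusted p under 0.05 over all 12403 genes tested in the edgeR quasi-likelihood test, and 2.35% of those genes were called higher and 1.95% lower. The median log2 fold change was 0.36 over the 10 members and -0.0015 over all tested genes, and 8 of the 10 values lay above 0 against 49.8% of all tested genes. *Ebi3* is counted in both, although it passed the low-count filter through the cKO libraries alone and so had to lie above 0. At an unadjusted p under 0.05, 1 member, *Capg*, was lower, and DESeq2 called none lower. DESeq2 with all 4 libraries called 2 members higher, where it called 234 of all tested genes higher. Which members were called, and how many genes in all, depended on the library left out. The median log2 fold change of the members was then 0.34 to 0.57.

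**Figure D1:**
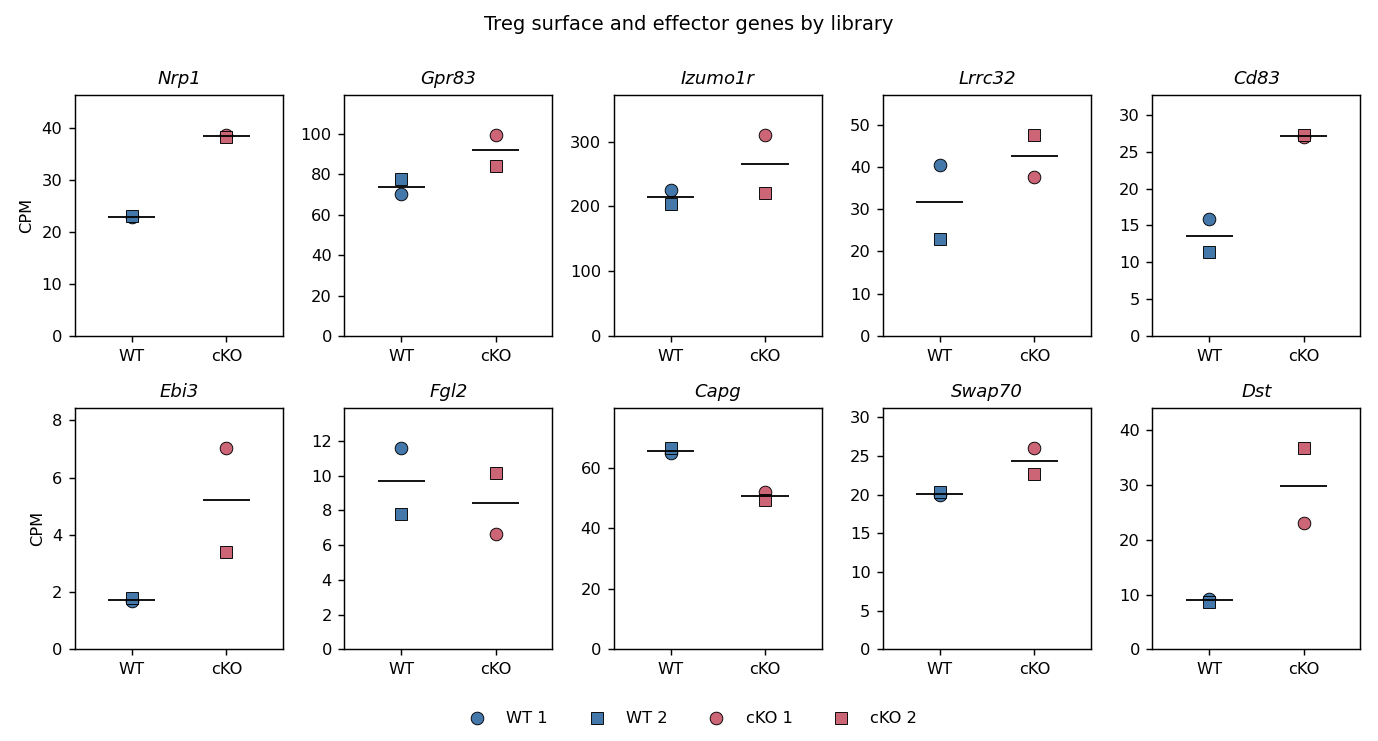
Expression of the 10 members in CPM (vertical axes, each from 0) by genotype label, with circles for replicate 1, squares for replicate 2 and a bar at the mean of the 2 libraries. *Nrp1*, *Cd83*, *Dst*, *Gpr83*, *Ebi3* and *Swap70* lie higher in both cKO libraries, *Capg* lies lower in both, and the libraries overlap for *Izumo1r*, *Lrrc32* and *Fgl2*.

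In 6 members both cKO libraries lay above both WT libraries, an arrangement seen in 24.8% of tested genes and, for *Ebi3*, required by the low-count filter, and in 1 member both lay below, as in 25.4% of tested genes. The other 3 overlapped. Levels of different genes can be set side by side only per length, as CPM per kb of annotated exon. On that scale *Izumo1r* was the most abundant member in the WT libraries, with a mean of 92.6 CPM per kb, before *Capg* with 26.0 and *Gpr83* with 14.5. *Lrrc32* (6.76) and *Cd83* (5.29) came next and overlapped each other. *Fgl2* (2.56) and *Swap70* (2.49) also overlapped, and the *Fgl2* values, from 2.06 to 3.06, overlapped those of *Nrp1* (2.34) as well. *Ebi3* (1.499) and *Dst* (0.217) followed. In the cKO libraries the first 3 kept their order, *Cd83* with 10.5 CPM per kb stood above *Lrrc32* with 9.09, and *Dst* was still last with 0.724. The *Dst* value is divided by the joint length of all its exons, 41155 bases from 20 annotated transcripts, and is too low if only a short form is made.

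**Figure D2:**
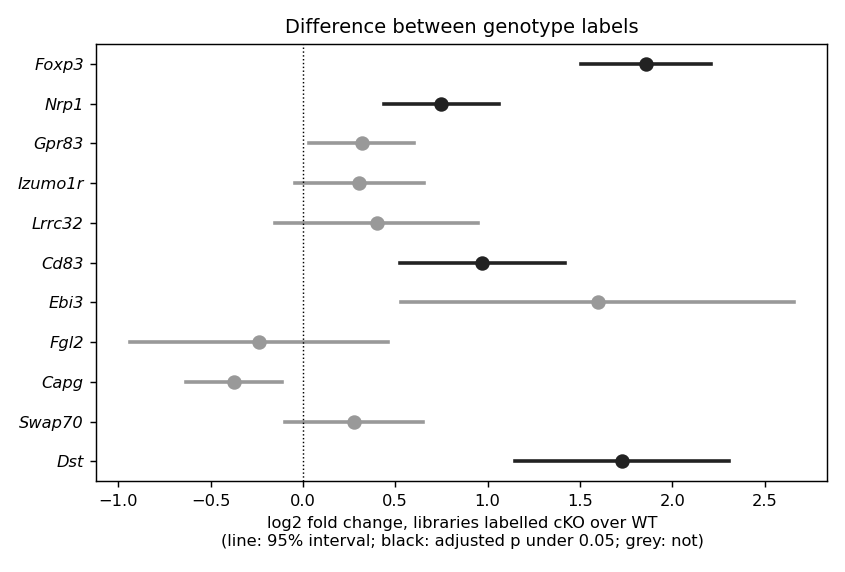
Log2 fold change of *Foxp3* and the 10 members (horizontal axis, libraries labelled cKO over WT), with points for the fitted values and lines for 95% intervals. Black marks an adjusted p under 0.05. *Dst* at 1.73 is the called member nearest to *Foxp3* at 1.86, and the interval of *Ebi3* is the widest.

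Among the surface proteins, *Nrp1* encodes neuropilin-1, a co-receptor for semaphorins and vascular growth factor that is typical of thymus-derived Treg cells. The gene lies on chromosome 8 from 128358604 to 128503363 of GRCm38. It had 150 and 103 counts in the WT libraries versus 204 and 181 in those labelled cKO, or 22.8 and 23.0 CPM against 38.7 and 38.3 CPM. The libraries of each label thus agreed closely and the labels did not overlap. The WT mean was 22.9 ± 0.0948 CPM (SD, n = 2) and the cKO mean 38.5 ± 0.282 CPM (SD, n = 2), a log2 fold change of 0.75 with an SE of 0.14 and an edgeR adjusted p = 0.0203. The part of B cells, myeloid cells and activated T cells, whose marker values are given with *Cd83* below, in the *Nrp1* result was not tested. Omitting any 1 library left the difference at 0.74 to 0.76, but the call was less stable. It was lost without WT 1 (edgeR adjusted p = 0.0540), without WT 2 (adjusted p = 0.160), in DESeq2 (adjusted p = 0.0598) and after thinning all libraries to the smallest total (log2 fold change 0.62, edgeR adjusted p = 0.0586).

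Of the binding partners of neuropilin-1, *Sema4a*, the semaphorin ligand reported for it on Treg cells, had 177 and 171 CPM in the WT libraries versus 141 and 120 CPM in those labelled cKO. That difference did not pass the threshold (log2 fold change -0.42, edgeR adjusted p = 0.0744). *Plxna1*, a plexin co-receptor, measured 38.5 and 29.0 CPM against 41.2 and 41.5 CPM (adjusted p = 0.398). The relative *Nrp2* was low, between 3.42 and 5.80 CPM in any library, and was not called (log2 fold change -0.37, edgeR adjusted p = 0.644).

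*Cd83* encodes an immunoglobulin-like surface protein of activated dendritic cells, B cells and Treg cells that stabilises MHC class II at the cell surface. It lies on chromosome 13 from 43784775 to 43803132. *Cd83* had 104 and 51 counts against 142 and 129, or 15.8 and 11.4 CPM in the WT libraries versus 26.9 and 27.3 CPM in those labelled cKO. Both cKO libraries lay above both WT libraries, and the WT libraries differed from each other more than the cKO libraries did. *Cd83* rose, since the WT mean was 13.6 ± 3.15 CPM (SD, n = 2) and the cKO mean 27.1 ± 0.254 CPM (SD, n = 2), a log2 fold change of 0.97 with an SE of 0.20 and an edgeR adjusted p = 0.0295. The call was lost without WT 2, where the log2 fold change was 0.77 and the edgeR adjusted p = 0.219. Without cKO 1, where the summed B cell markers were highest, the log2 fold change was 0.97 (edgeR adjusted p = 0.00702). Of the 10 B cell markers 4 were tested and 1 was called higher, *Pax5*, while *Cd22* measured 4.57 and 3.79 CPM against 9.11 and 10.6 CPM (adjusted p = 0.0529). Of the 10 myeloid markers 8 were tested and 3 were called higher, *Lyz2*, *S100a9* and *Cybb*, the last with 5.48 and 6.69 CPM against 13.1 and 15.5 CPM, and 2 of the 8, *Itgam* (-0.85) and *Cd68* (-0.29), had a log2 fold change below 0 and were not called. *Pax5* and *S100a9* passed the low-count filter through the cKO libraries alone and so had to be higher there. Of 7 markers of activated T cells 6 were tested and 1 rose, *Cd69*, from 135 and 126 CPM to 267 and 186 CPM (log2 fold change 0.79, edgeR adjusted p = 0.0292). The proliferation gene *Mki67* in that list measured 162 and 197 CPM against 35.1 and 97.8 CPM (-1.44, adjusted p = 0.0602). The others tested, *Il2rb* (0.37), *Itgb1* (0.32), *Cd44* (0.0035) and *Cxcr3* (-0.25), were not called, and *S100a4* did not pass the low-count filter. The part of B cells, myeloid cells and activated T cells in the *Cd83* result was not tested. *Marchf1* and *Marchf8*, which encode ubiquitin ligases that remove MHC class II from the surface, were at or under 2.23 CPM in every library.

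*Gpr83* and *Izumo1r* are neighbours on chromosome 9. *Gpr83* (14860210 to 14870789, plus strand) encodes a G protein-coupled receptor high in Treg cells, and *Izumo1r* (14885814 to 14903949, minus strand) encodes folate receptor 4, a surface protein high in Treg cells and naive T cells. Their facing ends are 15.024 kb apart with 0 annotated genes between them, and their start sites are 43.6 kb apart. *Gpr83* had 460 and 349 counts in the WT libraries versus 525 and 398 in those labelled cKO, or 70.1 and 77.9 CPM against 99.6 and 84.2 CPM. *Izumo1r* had 1482 and 914 counts against 1638 and 1041, or 226 and 204 CPM against 311 and 220 CPM.

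Both genes were highest in cKO 1, and for *Izumo1r* the value of cKO 2 lay between those of the WT libraries. Neither passed the threshold, with log2 fold changes of 0.32 (SE 0.12, edgeR adjusted p = 0.211) and 0.31 (SE 0.15, edgeR adjusted p = 0.329). The intervals of the folds ran from 1.02 to 1.52 for *Gpr83* and from 0.970 to 1.58 for *Izumo1r*. These values depended on a single library. Without cKO 2 both were called, at 0.44 (edgeR adjusted p = 0.0110) and 0.53 (adjusted p = 2.07e-05), and without cKO 1 the values were 0.19 and 0.03. Between the cKO libraries the ratio of cKO 1 to cKO 2 was 1.18 for *Gpr83* (95% exact interval 1.04 to 1.35, counting error only) and 1.41 for *Izumo1r* (1.30 to 1.53). The counts of *Izumo1r* per count of *Gpr83* were 3.22 and 2.62 in the WT libraries and 3.12 and 2.62 in cKO. The ratio was thus higher in replicate 1 of either label, and the labels overlapped. The genes on the outer sides of the pair, *Mre11a* and *Panx1*, had log2 fold changes of -0.24 and -0.05 and were not called (edgeR adjusted p = 0.339 and 0.871).

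*Lrrc32* encodes GARP, which holds latent TGF-beta on the surface of activated Treg cells until an integrin releases it. It lies on chromosome 7 from 98489283 to 98502181. The gene had 265 and 103 counts in the WT libraries versus 198 and 225 in those labelled cKO, or 40.4 and 23.0 CPM against 37.6 and 47.6 CPM. WT 1 lay between the cKO libraries, so the labels overlapped. The log2 fold change of 0.40 (SE 0.24, edgeR adjusted p = 0.421) did not pass the threshold, and its fold had an interval from 0.901 to 1.93. Within the WT libraries the ratio of WT 1 to WT 2 was 1.76 (95% exact interval 1.39 to 2.23, counting error only). The value followed the WT libraries accordingly, since it was 0.89 without WT 1, with an edgeR adjusted p = 0.0119, and 0.07 without WT 2, with an adjusted p = 0.971.

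The genes that work with GARP were examined beside it. *Itgav*, the alpha subunit of the integrins that activate TGF-beta, rose from 57.9 and 48.6 CPM in the WT libraries to 84.1 and 94.8 CPM in the cKO libraries (log2 fold change 0.74, SE 0.13, edgeR adjusted p = 0.0169). *Itgb8*, its partner subunit on Treg cells, was low, with 3.05 and 2.90 CPM against 6.45 and 9.74 CPM. Its libraries did not overlap and the difference of 1.43 narrowly missed the threshold (SE 0.35, edgeR adjusted p = 0.0584). *Tgfb1*, the cytokine itself, was abundant and measured 216 and 225 CPM against 259 and 227 CPM, which was not called (log2 fold change 0.14, edgeR adjusted p = 0.521). *Nrros*, which encodes the related anchor of latent TGF-beta on myeloid cells, measured 103 and 88.3 CPM against 90.9 and 83.4 CPM (log2 fold change -0.14, edgeR adjusted p = 0.592). Without WT 2 the call of *Itgav* was lost too, since no partner gene was called in that fit.

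**Figure D3:**
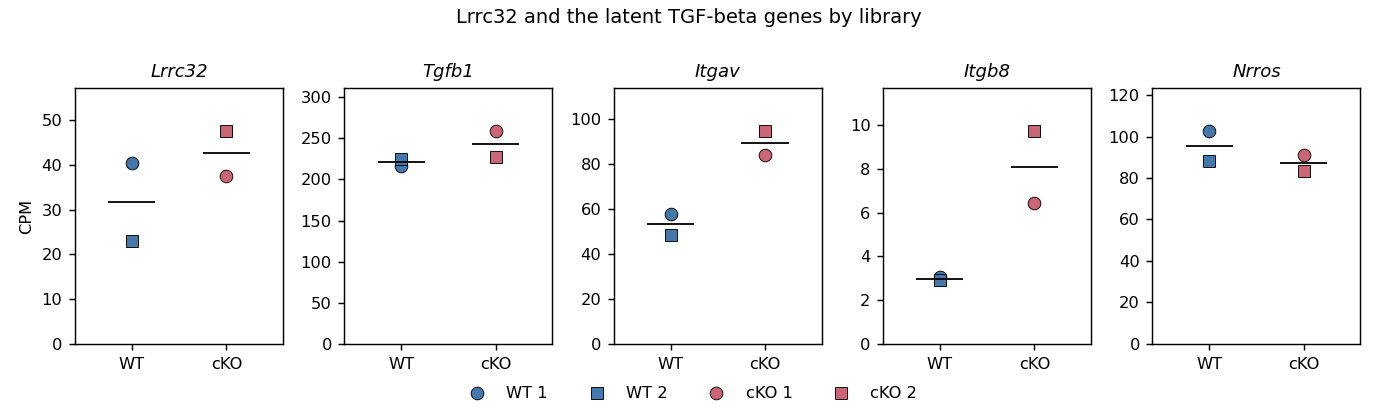
CPM of *Lrrc32* and 4 genes of latent TGF-beta handling (vertical axes, each from 0) by genotype label, with circles for replicate 1, squares for replicate 2 and a bar at the mean of the 2 libraries. *Itgav* and *Itgb8* lie higher in both cKO libraries, whereas the libraries of *Lrrc32* and *Nrros* overlap and *Tgfb1* differs little.

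Of the secreted products, *Ebi3* encodes the beta subunit shared by the cytokines IL-27 and IL-35. It lies on chromosome 17 from 55952640 to 55957022. It had 11 and 8 counts in the WT libraries versus 37 and 16 in those labelled cKO, or 1.68 and 1.78 CPM against 7.02 and 3.39 CPM. Both cKO libraries were above both WT libraries, and cKO 1 was 2.07-fold above cKO 2 (95% exact interval 1.13 to 3.99, counting error only). The log2 fold change of 1.596 had an SE of 0.47 and did not pass the threshold (edgeR adjusted p = 0.102). It was 2.02 without cKO 2, where it passed (edgeR adjusted p = 0.00463), and 0.96 without cKO 1, where it did not (adjusted p = 0.341). *Ebi3* reached the test through the cKO libraries alone, because only these were at or above the low-count limit of 1.9998 CPM, and a gene that passes in this way has to be higher there.

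The antisense gene *Gm16712* covers 23.4% of the exonic bases of *Ebi3* and had 14 and 5 counts in the WT libraries versus 32 and 21 in those labelled cKO. Whether reads were assigned by strand is not known, so reads on these shared bases may have been counted by strand or left out as ambiguous. The B cell markers were also highest in cKO 1, and their part in the *Ebi3* value was not tested. The partner subunits *Il12a*, for IL-35, and *Il27*, for IL-27, were at or under 0.212 CPM in every library, which is 1 count at most. Of the receptor chains, *Il27ra* measured 292 and 345 CPM against 301 and 302 CPM. *Il6st* (log2 fold change 0.23, edgeR adjusted p = 0.261) and *Il12rb2* (log2 fold change -1.47, adjusted p = 0.0962) were not called either.

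*Fgl2* encodes a fibrinogen-like protein that Treg cells and macrophages secrete and that inhibits dendritic cells through Fc receptors. It lies on chromosome 5 from 21372642 to 21378374. It had 76 and 35 counts against 35 and 48, or 11.6 and 7.81 CPM in the WT libraries versus 6.64 and 10.2 CPM in those labelled cKO. The labels overlapped, and the libraries within each label lay farther apart than the label means did. The log2 fold change was -0.24 (SE 0.31, edgeR adjusted p = 0.734), and the fold interval of 0.522 to 1.38 leaves room for a difference in either direction. Its sign reversed without WT 1 (0.11) and without cKO 1 (0.03). The part of myeloid cells in these values was not tested. The receptor genes *Fcgr2b* and *Fcgr3* were at or under 3.23 CPM in every library.

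Among the cytoskeletal members, *Dst* encodes dystonin, a giant linker protein of the plakin family that ties together actin, microtubules and intermediate filaments. The gene spans chromosome 1 from 33908225 to 34308661. It had 60 and 39 counts in the WT libraries versus 121 and 173 in those labelled cKO, or 9.14 and 8.70 CPM against 23.0 and 36.6 CPM. The WT libraries were alike, both cKO libraries were well above them, and cKO 1 was 0.627 of cKO 2 (95% exact interval 0.493 to 0.796, counting error only). *Dst* rose, since the WT mean was 8.92 ± 0.309 CPM (SD, n = 2) and the cKO mean 29.8 ± 9.66 CPM (SD, n = 2), a log2 fold change of 1.73 with an SE of 0.26 and an edgeR adjusted p = 0.00867. Only 0.766% of tested genes had a higher log2 fold change.

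The call of *Dst* held in 11 of 11 alternative fits, with log2 fold changes of 1.36 to 2.03 on omitting any 1 library and adjusted p up to 0.0300. The part of B cells, myeloid cells and activated T cells, whose marker values stand beside *Cd83*, in the *Dst* result was not tested. The opposite-strand genes that overlap its exons, *Gm26788* and *A930005N03Rik*, had at most 5 counts in any library. Of its relatives in the plakin family, *Macf1* and *Plec* were tested and not called, and *Dsp*, at or under 1.90 CPM in every library, did not pass the low-count filter. *Macf1* measured 1419 and 1620 CPM against 1400 and 1975 CPM (log2 fold change 0.15, edgeR adjusted p = 0.699), and *Plec* 1112 and 1018 CPM against 870 and 1023 CPM.

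*Capg* encodes a gelsolin-related protein that caps actin filaments and is found in Treg cells, memory T cells and macrophages. It lies on chromosome 6 from 72544391 to 72562983. It had 427 and 298 counts against 274 and 234, or 65.0 and 66.5 CPM in the WT libraries versus 52.0 and 49.5 CPM in those labelled cKO. *Capg* was thus the member whose cKO libraries both lay below the WT libraries, with close replicates. The log2 fold change of -0.37 (SE 0.11, edgeR adjusted p = 0.116) did not pass the threshold, with a fold interval from 0.646 to 0.925. Without cKO 1 it passed, at -0.41 (edgeR adjusted p = 0.0478). Its relative *Gsn*, gelsolin, measured 78.0 and 73.0 CPM against 95.8 and 80.2 CPM and was not called (adjusted p = 0.377).

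*Swap70* encodes a guanine nucleotide exchange factor-like protein that binds F-actin and acts on Rac in B cells, mast cells and T cells. It lies on chromosome 7 from 110221711 to 110283506. It had 131 and 91 counts against 137 and 107, or 20.0 and 20.3 CPM in the WT libraries versus 26.0 and 22.6 CPM in those labelled cKO. Both cKO libraries lay above the WT libraries by little, and the log2 fold change of 0.28 (SE 0.16, edgeR adjusted p = 0.412) did not pass, with a fold interval from 0.935 to 1.57. The value of cKO 1, where B cell markers were highest, was the higher of the cKO libraries, and the part of B cells in it was not tested. *Swap70* shares 4.88% of its exonic bases with the opposite-strand gene *Gm45515*, which had between 34 and 50 counts. Its closest relative *Def6*, which serves a similar role in T cells, measured 307 and 305 CPM against 314 and 297 CPM. *Def6* had a log2 fold change of -0.0016 (SE 0.095, edgeR adjusted p = 0.997). The Rac and actin genes *Rac1*, *Rac2*, *Rhoa*, *Actb* and *Actg1* were not called.

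*Foxp3* rose from 141 and 120 CPM in the WT libraries to 404 and 545 CPM in the cKO libraries, with a log2 fold change of 1.86 (SE 0.16, edgeR adjusted p = 0.000447). The members were therefore also expressed as counts per 100 *Foxp3* counts in the same library, a ratio that does not depend on scaling between libraries. In 8 of the 10 members the ratio was lower in both cKO libraries than in both WT libraries, which was the case for 98% of all tested genes because *Foxp3* itself rose. *Izumo1r* went from 160 and 170 per 100 *Foxp3* counts to 77.0 and 40.5, *Capg* from 46.1 and 55.4 to 12.9 and 9.09, and *Nrp1* from 16.2 and 19.1 to 9.59 and 7.03. *Cd83*, though called higher in CPM, went from 11.2 and 9.48 to 6.68 and 5.01.

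*Dst* was different, with 6.48 and 7.25 per 100 *Foxp3* counts in the WT libraries versus 5.69 and 6.72 in those labelled cKO, which overlap. *Ebi3* also overlapped, with 1.19 and 1.49 against 1.74 and 0.622, but its cKO libraries stood far apart. In libraries of mixed CD4+ T cells, a change in the number of cells that express a gene and a change in its RNA per cell cannot be told apart. Part of the *Foxp3* exons, 12.9%, is shared with *Ccdc22* on the opposite strand, which had 28 to 69 counts, and 18.6% with *Flicr* on the same strand, which had 14 to 30 counts.

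**Figure D4:**
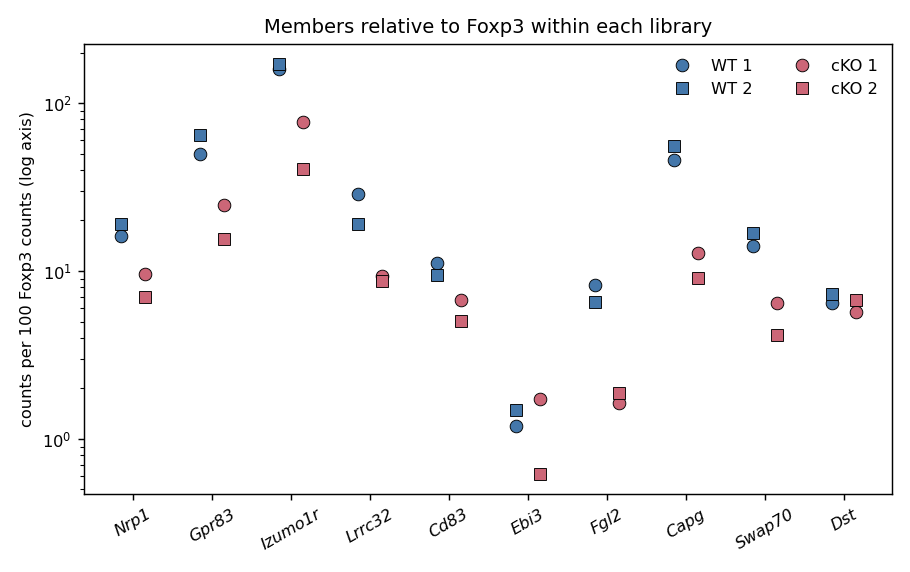
Counts of each member per 100 *Foxp3* counts in the same library (vertical log axis), with WT in blue, cKO in red, circles for replicate 1 and squares for replicate 2. In 8 members both cKO libraries lie below both WT libraries, whereas *Dst* stays between 5.69 and 7.25 in all 4 libraries and *Ebi3* overlaps.

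The wider Treg list comprised 21 other genes and all were tested. It includes *Foxp3* and genes that the study itself displays, so it is not independent evidence of a direction. Of the 21, 6 rose, 2 fell and 13 did not pass, where 2.35% and 1.95% of all tested genes were called in these directions. Their median log2 fold change was 0.47. Besides *Foxp3*, the genes that rose were *Nt5e*, encoding the adenosine-producing enzyme CD73 (0.87, edgeR adjusted p = 0.0105), *Id3*, an inhibitor of E proteins (0.84, adjusted p = 0.00511), *Tnfrsf4*, encoding OX40 (0.75, adjusted p = 0.0264), *Tnfrsf18*, encoding GITR (0.62, adjusted p = 0.0232), and the inhibitory receptor gene *Ctla4* (0.58, adjusted p = 0.0390).

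The genes that fell were *Gzmb*, encoding the cytotoxic protease granzyme B, from 62.3 and 54.0 CPM to 3.04 and 5.93 CPM (log2 fold change -3.72, edgeR adjusted p = 0.000127), and *Itgae*, encoding the integrin subunit CD103, from 33.8 and 29.2 CPM to 18.8 and 14.6 CPM (-0.92, adjusted p = 0.0267). CD8 T cells also express both, and their marker *Cd8b1* fell as well, from 42.2 and 51.8 CPM to 27.3 and 22.4 CPM (edgeR adjusted p = 0.0201). The other CD8 marker, *Cd8a*, measured 5.33 and 6.47 CPM against 6.83 and 4.23 CPM and was not called (log2 fold change -0.07, adjusted p = 0.941). The 4 markers of CD8 T cells and NK cells summed to 51.5 and 59.8 CPM in the WT libraries versus 36.8 and 27.1 CPM in those labelled cKO, a sum made up mostly of *Cd8b1*, and their part in these falls was not tested. The methods of the study name antibodies to B220, CD4 and CD8β for lineage gating, and do not say which gate was used for these sorts. Among the activated T cell markers *Cd69* rose, whereas *Il2rb* (0.37), *Itgb1* (0.32), *Cd44* (0.0035), *Cxcr3* (-0.25) and *Mki67* (-1.44) were not called. The part of activated T cells in the rises of *Tnfrsf4*, *Tnfrsf18* and *Ctla4* was not tested either. *Il2ra*, encoding CD25, measured 80.9 and 48.9 CPM against 115 and 121 CPM and narrowly missed the threshold (0.84, edgeR adjusted p = 0.0509). DESeq2 called 7 genes of the list higher, where it called 234 of all tested genes higher. The count for the list changed with the library left out, as did the number of genes called in all.

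Of 22 genes for ligands, receptors and binding partners of the members' products, 15 passed the low-count filter and 1 was called, *Itgav*, where 4.3% of all tested genes were called in either direction. Their median log2 fold change was 0.0033. With all libraries 5 had an unadjusted p under 0.05, and DESeq2 called 1, where it called 427 of all tested genes. The count of partners called changed with the library left out, as did the number of genes called in all. Of 14 relatives by gene family, 8 were tested and 0 were called by edgeR or DESeq2, with 1, *Svil*, at an unadjusted p under 0.05. On the chromosomes, the nearest tested gene on either side of each member gave 20 neighbours, of which 0 were called by edgeR or DESeq2 and 3 (*Gpr83*, *Gsap* and *Sbf2*) had an unadjusted p under 0.05. The neighbours of the rising members were *Rbm34* and *Itgb1* for *Nrp1*, *Mcur1* and *Jarid2* for *Cd83*, and *Zfp451* and *Gm37233* for *Dst*. Their log2 fold changes lay between -0.31 and 0.32. The closest of these was 93.6 kb away.

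**Figure D5:**
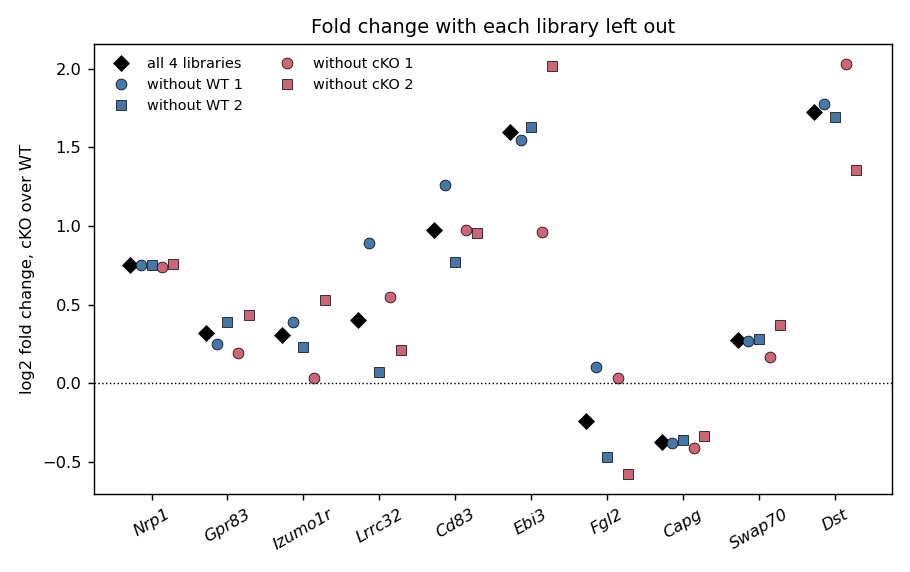
Log2 fold change of each member (vertical axis, cKO over WT) with all 4 libraries (black diamonds) and with WT 1, WT 2, cKO 1 or cKO 2 left out (coloured symbols). *Nrp1* stays between 0.74 and 0.76 and *Dst* between 1.36 and 2.03, *Lrrc32* runs from 0.07 to 0.89, and *Fgl2* crosses 0.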

How the data were processed

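RNA of sorted splenic CD4+ T cells was sequenced in 4 libraries. The authors aligned reads to mm10 with HISAT2 2.1.0 and counted them with HTSeq (0.11.1 in the submitters' processing notes), and deposited raw counts per gene symbol. The annotation and strand setting are not given in the sources used here. By default HTSeq leaves out reads that fall on more than 1 gene. Of the reads listed as in genes, ambiguous or outside genes, 59.4% to 64.5% fell outside genes, and the summary lines were kept out of library sizes and tests.

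Genes were kept by filterByExpr in edgeR 4.0.16 (R 4.3.3), scaled by TMM (factors 0.981 to 1.02) and tested with the quasi-likelihood F test on genotype label, two-sided, with no covariate. CPM use TMM-scaled library sizes. SE is the absolute log2 fold change over the square root of F, and 95% intervals use moderated degrees of freedom. Positions and exon lengths came from GENCODE M21 on GRCm38 (mm10), and windows before start sites from RefSeq GRCm38.p6. Plots were drawn with matplotlib 3.10.9. The procedure was tested on simulated data with known changes.

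The members and lists were chosen with earlier results of these data known, and the sequence words after the fits were seen. Named genes were all members, *Foxp3* and *Satb1*, called genes of the other lists, and some genes whose role touches a member. Some nearest neighbours, genes with an unadjusted p under 0.05 beside a count of 0, genes that overlap members and further markers were named after their values were seen. The study calls the replicates biological, but neither it nor the labels say that each came from a separate mouse, so p-values measure the spread between these libraries. Replicates differed by more than sampling noise (chi-square per degree of freedom of 2.83 for WT and 6.68 for cKO). Alternatives were RLE factors, total counts, other low-count filters, DESeq2 1.42.0, thinning to 4495902 counts, a replicate block, and leaving out each library.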

Additional observations from a re-analysis of the deposited data

How the results depend on the processing

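Of 110 values for the 10 members under 11 alternatives, 96 kept their direction and their side of the threshold, 7 became called, 5 lost the call and 2 reversed, both for *Fgl2* without a library (0.11 without WT 1, 0.03 without cKO 1, in a range of -0.57 to 0.11). *Satb1* also reversed, at 0.042 without WT 2 and 0.032 without cKO 2, in a range of -0.13 to 0.042. Scaling by RLE factors or total counts changed no member's direction or call. Without the low-count filter 1367 genes were called in place of 533, with 10 of the other Treg genes higher and 4 partners called, and *Ebi3* was called at an adjusted p of 0.00507.

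Same-numbered libraries deviated together by a correlation of 0.0642 across genes, and the labels do not say that the number marks a shared litter or day. With the replicate block 1165 genes were called, 4 of them members (*Ebi3* at an adjusted p of 0.0296 besides *Cd83*, *Dst* and *Nrp1*), and 4 partners.

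When a library was left out, the lone library of its label was assumed to vary like the others. The genes called then ranged from 180 without WT 2 to 1783 without cKO 2. The members called higher ranged from 1 to 6, those called lower from 0 to 1, and the median log2 fold change of the members from 0.34 to 0.57. The other Treg genes called higher ranged from 1 to 10, partners from 0 to 3, relatives from 0 to 2 and neighbours from 0 to 3. For all of these shifts the cause was not tested. The members with the fewest counts were *Ebi3*, with 8 to 37 per library, and *Fgl2*, with 35 to 76, and the intervals of their log2 fold changes were the widest among the members.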
